A study of Mus musculus with 12 samples.

Results

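Integrins are receptors that span the cell membrane and hold cells to the extracellular matrix. Of the 13276 genes measured, 9 integrin genes described in stellate cells of the liver are followed here: Itga1, Itga5, Itga8, Itga11, Itgav, Itgb1, Itgb3, Itgb5 and Itgb8. Their 21 probes among 45281 were taken by gene symbol from the platform's annotation, and 16 of the 21 were kept because they were above background on at least 3 arrays. The brightest kept probe of each gene gave its main value, a background-corrected, quantile-normalized log2 intensity. Such values were compared between arrays for the same probe and not between probes, so no gene is ranked against another by level.

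Total RNA of cultured mouse hepatic stellate cells, pericytes of the liver that become matrix-producing myofibroblasts after injury, was hybridised to 12 single-colour Illumina arrays in 4 groups of 3. All mice carried floxed alleles of Pdgfrb (β-PDGFRfl/fl, strain 129S4/SvJae), which encodes a receptor of platelet-derived growth factors. Wild-type cells came from Cre-negative mice and knockout cells from Cre-positive mice, whose GFAP Cre transgene was brought in from an FVB line. Cells were isolated with pronase and collagenase and a Percoll gradient, grown in medium with 10% serum, and treated in serum-free medium with 10 ng/ml PDGF-B or with its albumin vehicle. Each code in the titles (P11, P393 and P530 for wild type, P338, P522 and P524 for knockout) occurs once with vehicle and once with PDGF-B, and is called a preparation below. Whether such codes mark single mice, pooled mice or separate cultures is not told by the labels. The p-values therefore measure only the spread among these arrays, which may be technical. For the test of preparations below, it is the spread left between both arrays of a preparation after the ligand difference. The ages of the mice are not given in the sources used here.

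An integrin is a pair of an alpha and a beta subunit, and the pair sets the ligand. Itga1 and Itga11 pair with Itgb1 to bind collagens, Itga5 pairs with Itgb1 to bind fibronectin, and Itga8 pairs with Itgb1 to bind nephronectin and other ligands with an RGD motif. Itgav pairs with Itgb1, Itgb3, Itgb5 or Itgb8 to bind vitronectin, fibronectin and the latent form of TGF-beta, and its release of active TGF-beta from the matrix is known to take part in liver fibrosis. Inside the cell, talins and kindlins bind the beta tail and join it to the actin cytoskeleton.

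The promoter windows of the members that the results below turn on most (Itga11 and Itgb5 for the preparations, Itga5 for the ligand) are printed here. They are the RefSeq windows of assembly GRCm38.p6, from 250 bases before to 50 bases after the start, read 5′ to 3′ on the strand of the gene, with matches of the GC box in capitals. Itga11 is on chromosome 9 (chr9:62677605-62677904, plus strand), Itga5 on chromosome 15 (chr15:103366742-103367041, minus strand) and Itgb5 on chromosome 16 (chr16:33829415-33829714, plus strand).
Itga11: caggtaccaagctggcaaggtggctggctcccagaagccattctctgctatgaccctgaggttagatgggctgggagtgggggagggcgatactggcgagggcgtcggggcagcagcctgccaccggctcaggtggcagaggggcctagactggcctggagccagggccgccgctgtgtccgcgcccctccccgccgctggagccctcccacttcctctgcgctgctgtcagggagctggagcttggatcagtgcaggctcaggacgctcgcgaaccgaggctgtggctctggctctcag
Itga5: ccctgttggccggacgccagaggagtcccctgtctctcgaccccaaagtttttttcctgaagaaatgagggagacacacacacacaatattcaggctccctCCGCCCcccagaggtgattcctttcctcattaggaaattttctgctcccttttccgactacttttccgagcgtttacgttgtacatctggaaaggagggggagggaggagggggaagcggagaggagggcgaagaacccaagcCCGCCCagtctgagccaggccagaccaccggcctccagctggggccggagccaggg
Itgb5: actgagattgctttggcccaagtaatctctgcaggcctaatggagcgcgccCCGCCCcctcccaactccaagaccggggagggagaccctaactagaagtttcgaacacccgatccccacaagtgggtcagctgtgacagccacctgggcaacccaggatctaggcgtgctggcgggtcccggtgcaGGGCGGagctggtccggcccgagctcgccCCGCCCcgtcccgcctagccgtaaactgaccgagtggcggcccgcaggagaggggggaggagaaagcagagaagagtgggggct

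The search covered both strands for the GC box GGGCGG, the AP-1 site TGANTCA, the TATA box TATAAA, the E-box CACGTG and the CArG box. The GC box was in the windows of 4 of the 8 members that had a window (Itga5, Itgav, Itgb1 and Itgb5), and in 35.9% of 32544 windows of all genes. Itga5 had 2 matches, at bases -149 to -144 and -6 to -1 from the start, and Itgb5 had 3, at -199 to -194, -63 to -58 and -34 to -29. None of the 8 windows held a match of the other motifs, which were in 7.79% (AP-1), 13.6% (TATA), 7.17% (E-box) and 1.64% (CArG) of all windows. The window of Itga11 was 68% G and C, against a median of 53% over all windows, and held no match. A match or its absence describes these letters only.

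Deposited intensities had a median between 86.2 and 96.2 on each array, with 47.7% to 52.8% of probes above background. Of 18 stellate and myofibroblast markers 13 were measured and 10 were above background on all arrays. Lrat, Lhx2 and Gfap, genes of stellate cells whose Gfap promoter also drives the Cre, were above background on at most 2 arrays. Macrophage markers were above background on all arrays for 17 of 23 listed genes and mesothelial markers for 8 of 12, against 7 of 15 endothelial, 2 of 14 hepatocyte, 0 of 13 lymphocyte and 2 of 12 neutrophil and platelet markers. The mean level of the macrophage list was 8.97 in P524 and 9.67 to 9.90 in the other preparations. The mean of the mesothelial list was 7.07 in P522 and 8.18 to 9.12 elsewhere. In such mixed cultures fewer cells of a type and less RNA per cell cannot be told apart. The Pdgfrb probe gave preparation means of 6.74, 6.84 and 7.69 in wild type and 6.46, 7.66 and 7.07 in knockout, and since its place relative to the deleted part is not known here, it does not check the genotype labels.

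Among the collagen receptors, Itga11 differed most between preparations. This alpha subunit binds fibrillar collagen and is known from myofibroblasts. Its log2 intensity with vehicle and with PDGF-B was 6.38 and 6.68 in P11, 7.64 and 7.22 in P393, and 8.67 and 8.55 in P530, the wild-type preparations. In the knockout preparations it was 6.96 and 7.16 in P338, 8.46 and 8.77 in P522, and 9.03 and 8.73 in P524. Both genotypes thus held low and high preparations, and both arrays of a preparation lay close together. The preparation means ran from 6.53 in P11 to 8.88 in P524, a 5.11-fold range. Differences between preparations of the same genotype passed the moderated F test of limma at a Benjamini-Hochberg adjusted p of 4.91e-06, and at 2.59e-05 on a second probe. The range of Itga11 was wider than that of 99.2% of all genes.

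Itga1, the other collagen-binding alpha subunit among the members, was at 7.41 and 7.69 in P11, 7.16 and 6.73 in P393, and 7.46 and 7.56 in P530 with vehicle and PDGF-B. It was at 7.25 and 6.89 in P338, 6.93 and 6.89 in P522, and 7.80 and 8.07 in P524. P524 was above all other preparations, with a mean of 7.93 against 6.91 in P522 as the lowest. The preparations differed at an adjusted p of 0.00125 in the same limma F test. On a dimmer second probe, above background on 4 arrays, the adjusted p was 0.216.

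Itgb1, the beta subunit shared by most of these pairs, gave values between 7.38 and 7.82 on its main probe, and its preparation means spanned 0.38. They did not pass the test (adjusted p = 0.0728, limma). A second Itgb1 probe, also above background on all arrays, ran differently. It was at 7.92 and 7.92 in P11, 7.49 and 7.77 in P393, and 7.27 and 7.83 in P530, against 7.30 and 7.23 in P338, 7.50 and 7.61 in P522, and 7.002 and 6.68 in P524. P524 was thus highest on the main probe and lowest on the second. Across the 12 arrays, which share their preparations in pairs, both probes correlated at r = -0.393. Preparations differed on the second probe at an adjusted p of 0.00537 (limma), so for Itgb1 the call depends on the probe.

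**Figure D1:**
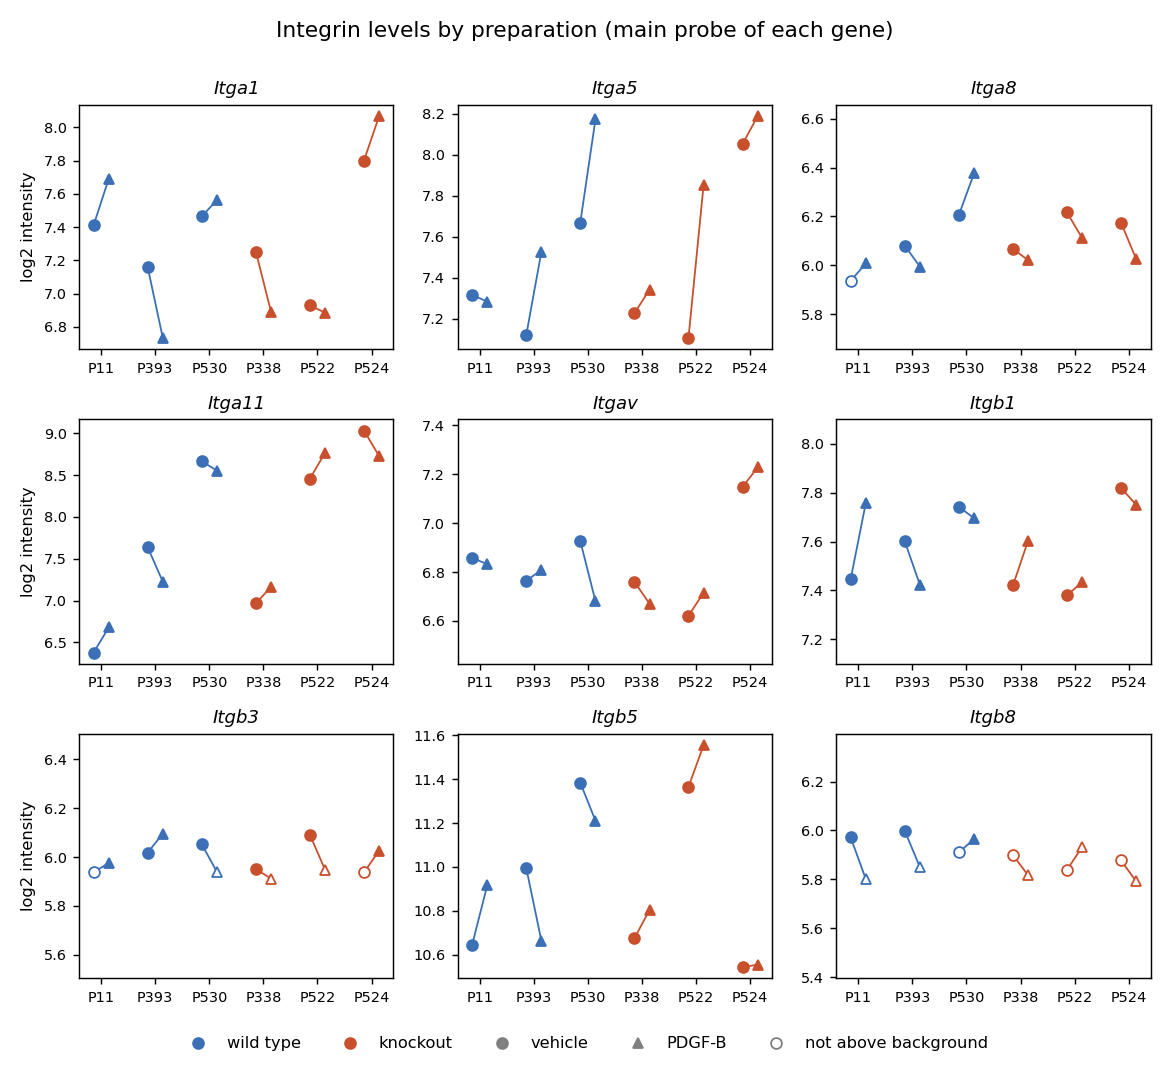
Normalized log2 intensity of the main probe of each of the 9 integrin genes by preparation, with 1 point per array (circles vehicle, triangles PDGF-B, joined within a preparation, open where not above background) and separate vertical scales. Itga11 spans 6.38 to 9.03 with low and high preparations in both genotypes, and Itgb3 and Itgb8 stay within 5.79 to 6.10.

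Itga5, the alpha subunit of the fibronectin receptor, was at 7.32 and 7.28 in P11, 7.12 and 7.53 in P393, and 7.67 and 8.17 in P530 with vehicle and PDGF-B. In the knockout preparations it was at 7.23 and 7.34 in P338, 7.11 and 7.85 in P522, and 8.05 and 8.19 in P524. P530 and P524, of opposite genotypes, were the highest preparations, and the PDGF-B array was above its vehicle array in all preparations but P11. The preparation means ran from 7.29 to 8.12 and differed at an adjusted p of 0.00245 (limma F test). Its second probe followed the main one at r = 0.951 over the 12 arrays, but there the PDGF-B array was below its vehicle array in P338 and not in P11.

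Itgav, the alpha subunit of the vitronectin receptors, lay between 6.62 and 6.93 on its main probe in 5 preparations, and at 7.15 and 7.23 in P524. The test of preparations passed at an adjusted p of 0.00475 (limma), and without P524 the adjusted p was 0.928, so the call rested on that preparation. A second Itgav probe above background on all arrays, designed on a cDNA clone, had its highest values in P11, at 7.01 and 6.94, and lay between 6.22 and 6.69 on the other arrays. It correlated with the main probe at r = -0.224, and its preparations differed at an adjusted p of 3.78e-04 (limma). Itga8 had values of 5.94 to 6.38 and was above background on 11 of 12 arrays. Its preparations differed at an adjusted p of 0.0451 (limma), a call that was kept in 5 of 14 alternative settings.

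**Figure D2:**
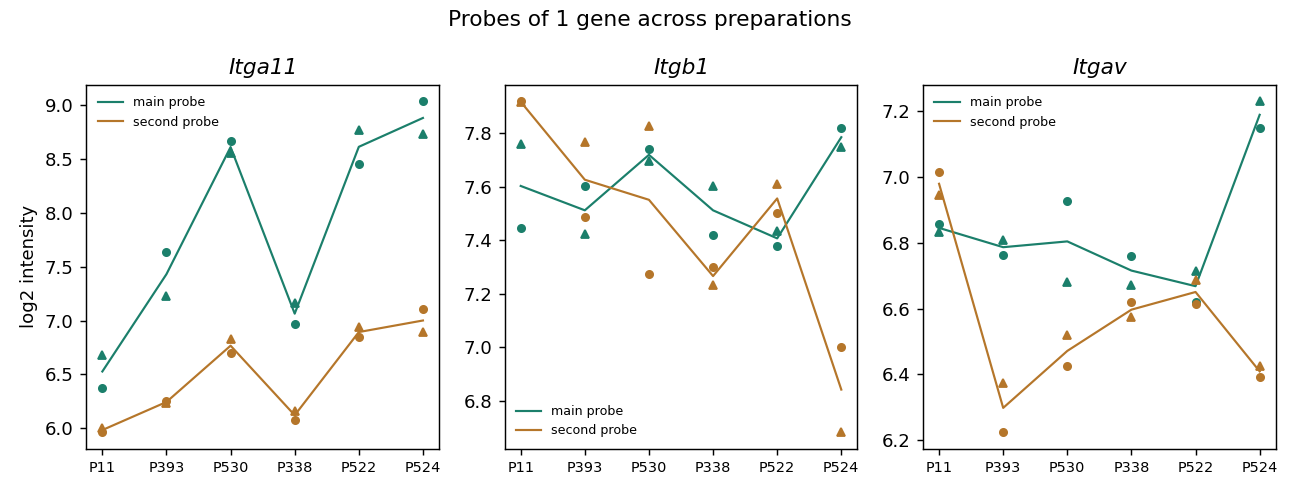
Log2 intensity of both probes above background on all 12 arrays for Itga11, Itgb1 and Itgav, by preparation, with circles for vehicle, triangles for PDGF-B and lines for preparation means. Both Itga11 probes follow each other (r = 0.980), while those of Itgb1 (r = -0.393) and Itgav (r = -0.224) do not.

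Like Itgb1, which also pairs with Itgav, Itgb5 was above background on every array. It was at 10.65 and 10.92 in P11, 10.995 and 10.66 in P393, and 11.38 and 11.21 in P530 with vehicle and PDGF-B. It was at 10.67 and 10.80 in P338, 11.36 and 11.56 in P522, and 10.54 and 10.55 in P524. P522 and P530 were the high preparations and P524 was the lowest, where Itga1, Itga5 and Itgav were at their highest. Preparations differed by up to 1.88-fold at an adjusted p of 4.43e-04 (limma F test), and with median scaling in place of quantile normalization the adjusted p was 0.0896.

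Itgb3, known from platelets and osteoclasts, had values of 5.91 to 6.10 and was above background on 7 of 12 arrays. Itgb8, whose pair with Itgav binds latent TGF-beta, had values of 5.79 to 5.999. It was above background on 2 of 3 wild-type vehicle arrays, on 1 of 3 wild-type arrays with PDGF-B and on 0 of 6 knockout arrays. Its probe thus passed the filter of 3 arrays through wild-type arrays alone, so its genotype differences are not read as a result. Neither passed the test of preparations (adjusted p = 0.743 and 0.959, limma), and with values this near background a difference was not detectable.

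Differences between preparations of the same genotype therefore passed the test for 6 of the 9 members, where 45.7% of all genes tested did. The median range over the 6 preparation means was 0.52 for the members and 0.33 for all genes. Itgb3 and Itgb8, near background, had ranges of 0.13 and 0.10. Of the members, 6 of 9 were above background on all arrays, where kept genes needed only 3. Comparisons of ranges with all genes, here and for the lists below, were not matched for brightness. Marker lists of other cell types moved with some of these preparations: P524, the highest in Itga1, Itga5, Itga11 and Itgav, had the lowest macrophage list, and P522, the highest in Itgb5, the lowest mesothelial list. The mean of the endothelial list was also lowest in P524, at 6.50. The mean of the stellate and myofibroblast list moved too, and was highest in P524 at 8.79 and lowest in P522 at 8.34. Their part in the results was not tested.

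PDGF-B was compared with vehicle to ask whether the ligand changes these genes in either genotype. No member passed the test in wild-type cells, in knockout cells or over both, nor did any other gene, so that 0% of the 13276 genes were called in each of these 3 comparisons. At an unadjusted p under 0.05 in limma there were 40 genes higher and 39 lower in wild type, 61 and 70 in knockout, and 66 and 47 over both, with 0 members among them. Those counts come from a fit that takes all arrays as independent. With the preparation as a replicate block, 627, 828 and 834 genes were at that level in limma. Itga5 was the 1 member among them in each comparison. Itga5 had the largest difference of the members. On the main probe, PDGF-B minus vehicle was -0.03 in P11, 0.41 in P393, 0.50 in P530, 0.12 in P338, 0.75 in P522 and 0.14 in P524. It was positive in 5 of 6 pairs. The mean difference was 0.29 ± 0.32 in wild type and 0.33 ± 0.32 in knockout (SE, n = 3 arrays per group), and 0.31 ± 0.22 over both, with a 95% interval of -0.19 to 0.81 and an adjusted p of 0.99995 (limma). These SEs come from a fit that takes all arrays as independent. With the preparation as a replicate block the SE was 0.13 in each genotype and 0.091 over both, and the adjusted p from limma was 0.998, 0.754 and 0.644. On the second Itga5 probe the difference was 0.35 in wild type, 0.18 in knockout and 0.26 over both. There P338 went from 6.57 with vehicle to 6.48 with PDGF-B, and P11 from 6.42 to 6.54.

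The other members were at -0.06 to 0.04 over both genotypes. Itga11 was at -0.0036 ± 0.53, with an interval of -1.19 to 1.18 in the fit without pairs. With the replicate block its SE was 0.096 and its unadjusted p in limma 0.971. Itgb1 was at 0.04 ± 0.10 on its main probe and at 0.09 on the second. The median of the 9 members was -0.015, and that of all genes -0.002.

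**Figure D3:**
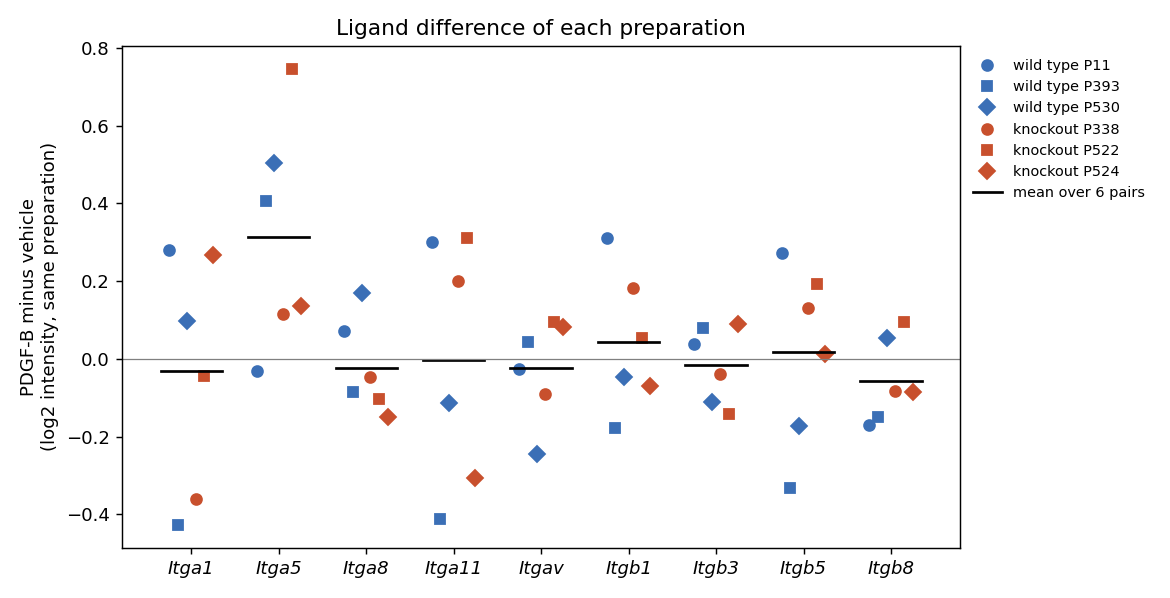
Log2 intensity with PDGF-B minus that with vehicle within each of the 6 preparations, for each of the 9 integrin genes, with black lines at the mean. The Itga5 differences are positive in 5 of 6 preparations, from -0.03 to 0.75, and the other genes scatter around 0.

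Knockout cells were compared with wild-type cells to ask whether loss of the receptor changes these genes with or without its ligand. No member passed the test, and the share of all genes called was 0.00753% with vehicle and 0.0151% with PDGF-B, 1 and 2 genes. Those were Cd300ld in both and Twistnb with PDGF-B, neither an integrin gene. With the replicate block, which treats both arrays of a preparation as related, 2 genes were called in each. Itga11 had the largest values. With vehicle it was at 7.56 ± 1.15 in wild type and 8.15 ± 1.07 in knockout (SD, n = 3), a difference of 0.59 ± 0.75 (SE) with a 95% interval of -1.09 to 2.27. With PDGF-B it was at 7.49 ± 0.96 and 8.22 ± 0.91, a difference of 0.73 ± 0.75 with an interval of -0.94 to 2.41 (adjusted p = 0.9995 and 0.9999, limma). The groups overlapped, and the vehicle difference was -0.00057 without P11, 0.15 without P524, 1.14 without P530 and 1.18 without P338, and -0.39 with array weights. The difference with PDGF-B ran from 0.33 without P11 to 1.27 without P530, and was 0.12 with array weights.

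The other 8 members differed between genotypes by -0.15 to 0.13, the largest being Itgb5 at -0.15 ± 0.30 with vehicle and Itga5 at 0.13 ± 0.32 with PDGF-B. Among the main probes, 3 of 9 differences were positive with vehicle and 4 of 9 with PDGF-B, against 53.8% and 54.5% of all genes. Itgb8, kept through wild-type arrays alone, was among the negative ones in both. On the second Itgb1 probe, knockout was lower by 0.29 on the log2 scale with vehicle, where the arrays of the genotypes overlapped. With PDGF-B it was lower by 0.66, at 7.23, 7.61 and 6.68 in knockout and 7.92, 7.77 and 7.83 in wild type. That difference had an unadjusted p of 0.0181 and an adjusted p of 0.9999 in limma, and on the main probe it was -0.03 ± 0.14. The macrophage list had negative differences in 19 of 19 measured genes with vehicle and 17 of 19 with PDGF-B, with 0 called. Of all genes, 53.8% and 54.5% had positive differences. The mean of the list was 8.97 in P524, 9.79 and 9.81 in the other knockout preparations, and 9.67 to 9.90 in wild type. On single arrays with vehicle it ran from 9.73 to 9.90 in wild type and 8.98 to 9.81 in knockout. With PDGF-B it ran from 9.61 to 9.90 and from 8.96 to 9.83. The part of this in the integrin values was not tested.

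**Figure D4:**
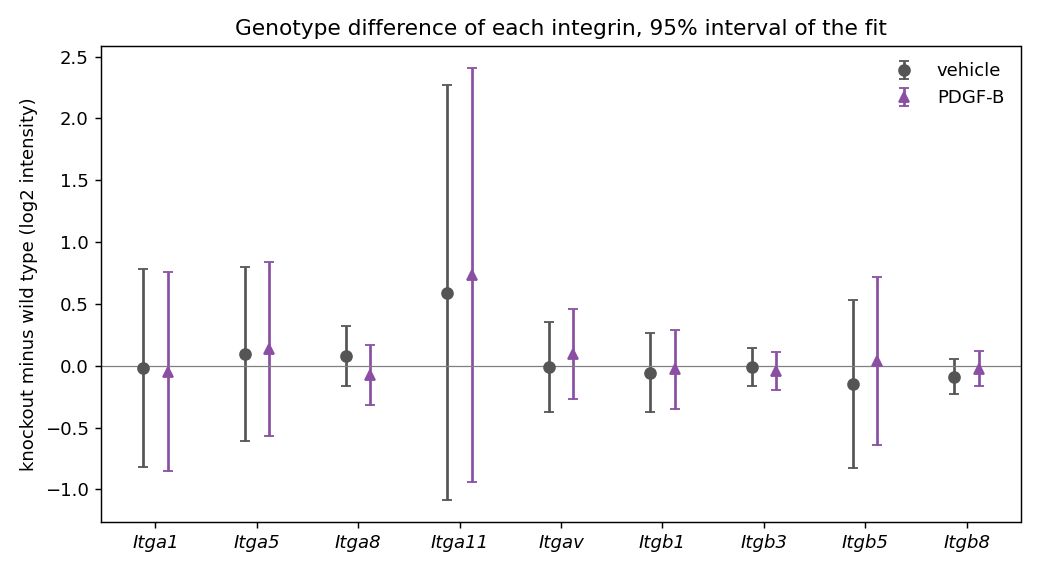
Knockout minus wild type in log2 intensity for each integrin gene with vehicle and with PDGF-B, with 95% intervals of the limma fit (n = 3 arrays per group). All intervals include 0, and that of Itga11 is the widest, from -1.09 to 2.27 with vehicle.

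The ligand response was compared between the genotypes with the interaction term. 0% of genes passed, and no member had an unadjusted p under 0.05 in limma, where 37 genes were higher and 42 lower at that level. With the replicate block 597 genes were at that level in limma, with 0 members among them. Knockout minus wild type in the PDGF-B response was 0.19 ± 0.43 for Itgb5, -0.15 ± 0.15 for Itga8, 0.14 ± 1.06 for Itga11 and 0.04 ± 0.45 for Itga5 (SE). The Itga5 response thus had an interval of -0.96 to 1.04 for its difference between genotypes in the fit without pairs, and an SE of 0.18 with the replicate block, which does not show that they respond alike.

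Genes that work with these integrins were read from 4 lists. Of 17 other integrin subunits 15 were measured, and 6 of them differed between preparations in the limma F test, where 45.7% of all genes did. Their median range was 0.285, against 0.332 for all genes. The 5 with the smallest p were Itga3, Itgb2, Itga9, Itgb4 and Itgax. Itga3, a laminin-binding alpha subunit of epithelia, was at 7.01 in P522 and at 7.99 to 9.14 in the other preparations (adjusted p = 4.68e-06), and the mesothelial list was lowest in P522 too. Itgb2, the beta subunit of leukocytes, was at 6.99 in P524 and at 7.77 to 8.33 elsewhere (adjusted p = 7.65e-06), and the macrophage list was lowest in P524. Itga9, which binds tenascin, was lowest in P524 and P338, at 7.29 and 7.30, and highest in P11 at 8.48. Itgb4, the hemidesmosome subunit, was highest in P338 at 8.32. Itgax, an alpha subunit of leukocytes, was highest in P522 at 6.52 and lowest in P524 at 5.90.

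Of 32 adaptor and focal adhesion genes 29 were measured, and 21 differed between preparations, against 45.7% of all genes. Their median range was 0.557, against 0.332 for all genes. Fermt3, the kindlin of blood cells, was at 7.57 in P524 and at 8.46 to 8.98 elsewhere (adjusted p = 7.71e-07, limma F test). Cav1, the caveolar coat protein, was at 10.92 in P522 and at 12.59 in P524. Flna, Vcl and Parva, which tie integrins to actin, were each highest in P524, at 10.46, 12.26 and 10.16. These 3 were low in P522 and P393, at 9.28 and 9.42 for Flna, 11.17 and 11.47 for Vcl, and 9.32 and 9.30 for Parva.

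Of 35 matrix ligands 28 were measured and 20 differed between preparations, against 45.7% of all genes, with a median range of 0.955. Col3a1, a fibrillar collagen, was at 11.02 to 11.22 in P393, P530 and P524, and at 8.91 to 9.76 in P11, P338 and P522. Itga11 was thus high and Col3a1 low in P522. Vwf, the endothelial ligand of platelets, was high in P393 and P338, at 8.83 and 8.54. Tgfbi was highest in P393 at 10.78, Lama5 in P524 at 8.03 and Ccn1 in P530 at 9.66. Of 12 latent TGF-beta genes 10 were measured and 9 differed, against the same 45.7%, with a median range of 0.976. Nrros, which holds latent TGF-beta on macrophages and microglia, was at 8.67 in P524 and at 9.52 to 10.27 elsewhere. Tgfb3 was highest in P530 at 9.15, and Ltbp1, Ltbp3 and Ltbp4, which anchor latent TGF-beta in the matrix, were highest in P524 at 9.24, 10.00 and 7.35.

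**Figure D5:**
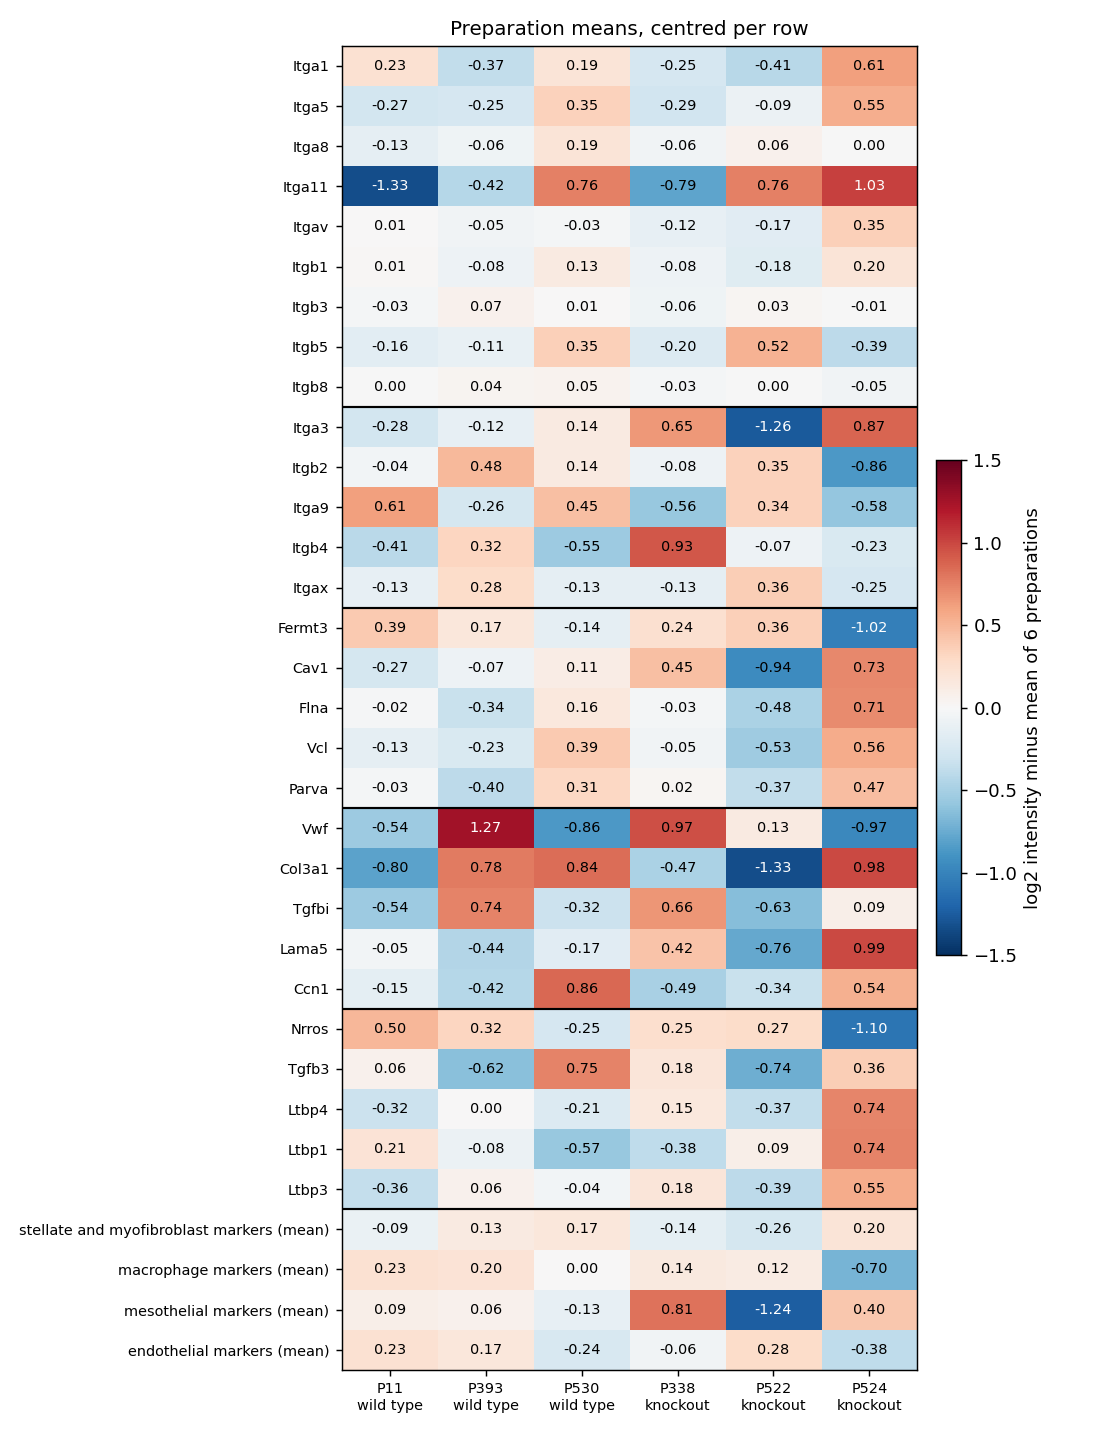
Preparation means of log2 intensity, each row centred on its mean over the 6 preparations, for the 9 integrins, the 5 genes with the smallest p of each of the 4 lists, and the mean of 4 marker lists. Itga11 is lowest in P11 (6.53) and highest in P524 (8.88), Fermt3 and the macrophage list are lowest in P524, and Itga3 and the mesothelial list are lowest in P522.

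None of these lists had a gene past the test for PDGF-B over both genotypes. The smallest unadjusted p belonged to Tnc, the matrix protein tenascin C, whose difference was 0.76 ± 0.17 (SE) and positive in 5 of 6 pairs. For Tnc the limma fit gave an unadjusted p of 0.00136 and an adjusted p of 0.99995. Among ligands Nid1 was at 0.34 ± 0.23 and Fgg at 0.05 ± 0.04. Among other integrins Itgae was at 0.10 ± 0.05, Itga2b at -0.09 ± 0.05 and Itgb7 at -0.08 ± 0.07. Ptk2b was at -0.09, Crk at 0.11 and Pxn at -0.11, and Ltbp2 was at 0.09, Ltbp1 at 0.16 and Ltbp3 at 0.06. Of the 28 ligands 21 had positive differences, where 48.3% of all genes did. Their median was 0.043, against -0.002 for all genes, and whether the list as a set differs was not tested.

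The genes whose values over the 12 arrays were most like a member's were found by Pearson r, as a description, since arrays share preparations. For Itga11 they were Lpar1 (r = 0.967), Lox (0.966) and Prnp (0.965). For Itga5 they were Akap1 (0.964), Pip4k2b (0.952) and Pomgnt1 (0.952), and for Itgb5 they were Pik3c2a (0.943), Septin8 (0.927) and Rab31 (0.919). For Itga1 they were Srpk1 (0.912), Suco (0.908) and Wls (0.907), and for Itgav they were Nudt5 (0.950), Dhx36 (0.942) and Ifi27l2b (0.937). The most like for Itgb1 was Bcar1 (0.905), a focal adhesion scaffold, on the main probe. Within the members, Itga1 followed Itgb1 at r = 0.781 and Itgav at 0.769, Itga5 followed Itga11 at 0.688, and Itgav and Itgb5 ran against each other at -0.550.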

How the data were processed

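The authors deposited a table of non-normalized probe intensity for 12 single-colour Illumina arrays and a table of normalized intensity. The first was used, and the sources used here do not tell how beads were summarised. In R 4.3.3 with limma 3.58.1, normexp with an offset of 50 removed background, arrays were put on common quantiles, and log2 was taken. The deposited tables used here hold no detection p-value. A probe was called above background at an estimated p under 0.05, from each array's distribution mirrored below its mode, and kept if so on at least 3 arrays, which left 26152 probes. The annotation gave 1 symbol for 34885 probes, several for 18 and none for 10378. Of the probes with 1 symbol, 34807 matched a RefSeq gene ID. The brightest kept probe stood for each of 13276 genes.

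Means of the 4 groups were fitted to all 12 arrays with lmFit and eBayes (8 residual degrees of freedom), and p-values were adjusted by Benjamini-Hochberg over all genes at 0.05. Preparations were compared by a moderated F test within genotypes, allowing for ligand, against the spread left between arrays of the same preparation. The fit was also run on simulated data. For the ligand and genotype comparisons those data held independent noise and no differences between preparations. That run therefore does not check the fit where preparations differ. Arrays of the same code deviated together from their group means (r = 0.585 to 0.930 across genes). Among the PDGF-B arrays, each vehicle array matched the array of its own code best. The codes were thus taken to pair the arrays, from the titles and this check. With a replicate block, 4 residual degrees of freedom remain for the ligand comparisons and the interaction. For genotype comparisons the block kept the fit of 4 group means, and statmod 1.5.0 estimated correlations within preparations. Alternatives varied the background correction, offset, normalization, table, filters, probe, prior, array weights, pairing, arrays in the fit, and each preparation left out. The number of arrays limits the precision.

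The members and lists were chosen with earlier results of these data known. All 9 members are named. Of a list, at most 5 genes past the threshold with the smallest p are named, and for the ligand, where none passed, the 3 with the smallest unadjusted p over both genotypes. For likeness, the 3 genes with the highest r are named.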

Additional observations from a re-analysis of the deposited data

How the results depend on the processing

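No member passed a test of ligand, genotype or their interaction under any alternative run: of 954 such values 0 were called, and 136 had the sign opposite to the reported one. PDGF-B over both genotypes gave Itga5 values of 0.20 to 0.39 under the alternatives. With the replicate block its SE fell from 0.22 to 0.091, with an unadjusted p of 0.00618 and an adjusted p of 0.644 in limma. Under the replicate block the ligand comparisons and the interaction still called 0 genes, with 627 genes at an unadjusted p under 0.05 in wild type, 828 in knockout, 834 over both and 597 for the interaction. Itga5 was among them in the 3 ligand comparisons, with an unadjusted p of 0.0462 in wild type and 0.0268 in knockout, and no member passed after adjustment. The genotype difference with vehicle called 2 genes in place of 1 with the replicate block, no background correction, the authors' normalized values, the mean of probes, an intensity trend with a robust prior, or array weights, and 0 to 3 when a preparation was left out. With PDGF-B it called 0 in place of 2 with median scaling or only the groups compared, 1 with probes above background on all arrays, and 0 to 3 when a preparation was left out. The cause was not tested. The F test of preparations called 3670 to 6786 genes when a preparation was left out, in place of 6069, with the lowest count without P524. Itga1, Itga5 and Itga11 passed it in 15 of 15 settings, other probes apart, with adjusted p up to 0.0449, 0.0453 and 3.64e-04. Itgb5 passed in 14 of 15, Itgav in 13 of 15 (not with the mean of probes, 0.0585) and Itga8 in 5 of 14. Itgb1 passed with array weights (0.0257), without P11 (0.00517) and without P393 (0.0406). Signal limits Itgb3 and Itgb8, near background on most arrays.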
